A study of Mus musculus with 6 samples.

Results

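De novo fatty acid synthesis, the making of fatty acids from acetyl-CoA, was followed through 10 genes in mouse ear skin on which ticks had fed. The genes were Acly, Me1, Acaca, Acacb, Fasn, Elovl6, Scd1, Thrsp, Srebf1 and Mlxipl. All 10 were found by symbol among the 15667 genes of the table. The group was chosen because the level of Fasn separated the genotypes compared here, so the differences of these 10 genes between genotypes are given as a description, without a test.

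The animals were young adult female mice of the line B6;129-Adipoq tm1Chan/J. They were either wild type for the adiponectin gene Adipoq (Adipo+/+, WT, n = 3) or littermates homozygous for a targeted null allele (Adipo-/-, KO, n = 3). Each library was made from the total RNA of 1 skin punch per mouse, taken where ticks had bitten the ear, and both genotypes had been bitten. The null allele is carried by every cell of the animal, on a mixed B6;129 background, and unbitten skin was not analysed here.

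Levels are counts per 1000000 reads (CPM), which are not divided by gene length, so a level is compared between libraries and never between genes. The depth implied by the lowest values ranged from 4130838 to 6064624 reads for WT and from 3404040 to 6590229 for KO. At these depths 3 reads were worth 0.455 to 0.881 CPM. Adipoq itself stood at 30.5, 63.7 and 49.6 CPM in WT replicates 1, 2 and 3, and at 0, 0.56 and 0 CPM in the KO replicates, so every library matched its label. The libraries differed in tissue makeup. Hair follicle keratins and trichohyalin summed to 23533 CPM in WT replicate 3 and to 8.47 and 9.97 CPM in the other WT libraries, against 955 to 9362 CPM in KO libraries.

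The pathway runs in the cytosol. Citrate that leaves the mitochondrion is cleaved to acetyl-CoA by ATP citrate lyase (Acly), and malic enzyme (Me1) supplies NADPH. Acetyl-CoA carboxylase (Acaca and, at the mitochondrial surface, Acacb) makes malonyl-CoA, and fatty acid synthase (Fasn) joins malonyl units into palmitate. ELOVL6 lengthens palmitate and SCD1 introduces a double bond. The transcription factors SREBP1 (Srebf1) and ChREBP (Mlxipl) switch these genes on in answer to insulin, sterols and glucose, and Thrsp (Spot 14) is a small nuclear and cytosolic protein found in lipogenic tissues. In skin the pathway is active in the fat layer and in sebaceous glands, and also in keratinocytes that build the lipid barrier.

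The bases just upstream of the gene starts are shown for 4 of the genes. Fasn, Acaca and Thrsp are given because no KO library reached the level of any WT library, and Acly because its groups overlapped. The sequences are the 250 bases before the start listed for each gene, from RefSeq (GRCm38.p6), written 5′ to 3′ on the strand of the gene. Capitals mark matches, on either strand, to the letters of a CCAAT box (CCAAT) or a GC box (GGGCGG).
Fasn, chr11:120824548-120824797, minus strand: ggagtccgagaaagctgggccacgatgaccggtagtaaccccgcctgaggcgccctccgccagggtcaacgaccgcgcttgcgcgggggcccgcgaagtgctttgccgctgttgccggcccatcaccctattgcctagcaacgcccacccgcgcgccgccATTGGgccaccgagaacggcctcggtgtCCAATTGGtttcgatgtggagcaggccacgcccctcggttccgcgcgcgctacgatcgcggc
Acaca, chr11:84195188-84195437, plus strand: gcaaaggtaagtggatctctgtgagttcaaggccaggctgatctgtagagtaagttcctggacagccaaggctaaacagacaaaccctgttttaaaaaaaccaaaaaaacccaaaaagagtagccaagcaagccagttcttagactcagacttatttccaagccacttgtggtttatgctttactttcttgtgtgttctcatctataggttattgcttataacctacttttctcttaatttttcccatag
Thrsp, chr7:97417551-97417800, minus strand: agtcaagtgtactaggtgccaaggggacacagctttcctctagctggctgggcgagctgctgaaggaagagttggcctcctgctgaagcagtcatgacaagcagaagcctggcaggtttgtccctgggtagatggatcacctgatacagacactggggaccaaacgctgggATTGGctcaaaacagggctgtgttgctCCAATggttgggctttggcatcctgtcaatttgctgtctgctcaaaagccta
Acly, chr11:100528001-100528250, minus strand: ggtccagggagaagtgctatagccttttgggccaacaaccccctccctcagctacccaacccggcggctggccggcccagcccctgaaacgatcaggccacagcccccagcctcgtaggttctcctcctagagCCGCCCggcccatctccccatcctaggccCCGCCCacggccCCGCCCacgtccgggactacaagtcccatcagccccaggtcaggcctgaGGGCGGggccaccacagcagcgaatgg

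In the Fasn window the CCAAT letters occurred 3 times, once from base -90 to -86 on the opposite strand and then as overlapping matches on both strands from -62 to -58 and from -59 to -55. The Thrsp window held them at a like distance, from -79 to -75 on the opposite strand and from -52 to -48 on the gene's own strand. So did the window of Acacb, whose groups overlapped, from -87 to -83 on the gene's own strand. In Srebf1 (-166 to -162) and Mlxipl (-173 to -169) they lay further from the start. The Acaca window held neither motif, and the Acly window held no CCAAT box and 4 GC boxes. Whether transcription begins at the listed starts in this skin was not tested. The lack of a motif before Acaca therefore holds for the printed bases and not for its promoter. A window was listed for 9 of the 10 genes at the start given in the table, and 5 of these 9 held a CCAAT box (Fasn, Thrsp, Acacb, Srebf1 and Mlxipl), against 33.8% of all 32851 windows of the same length. These 5 were Fasn and Thrsp, whose groups did not overlap, and 3 genes whose groups overlapped. A GC box was found in 3 (Acly, Me1 and Mlxipl), against 32.7% of all windows.

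The E-box letters CACGTG, read by ChREBP and USF factors, were present in Mlxipl alone among the 9 and in 6.02% of all windows, and the TATA letters TATAAA were present in Acacb alone and in 12.4% of all windows. The letters TCACNCCAC, taken here for a sterol regulatory element of the kind SREBP1 binds, were in none of the 9 windows and in 1.05% of all windows, which says only that these letters are not in these 250 bases. Letters were searched on both strands, and a match describes the sequence and does not show that a factor is bound. The windows of Fasn and Acly were rich in G and C (69.2% and 68.8% of bases), and those of Thrsp and Acaca less so (53.6% and 39.2%). Several of the genes have further starts that are not shown, including Me1, Srebf1 and Mlxipl. The window of a further Mlxipl start held the letters TCACNCCAC, from -136 to -128 on the gene's own strand. Windows of further starts are counted in the shares of all windows.

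**Figure D1:**
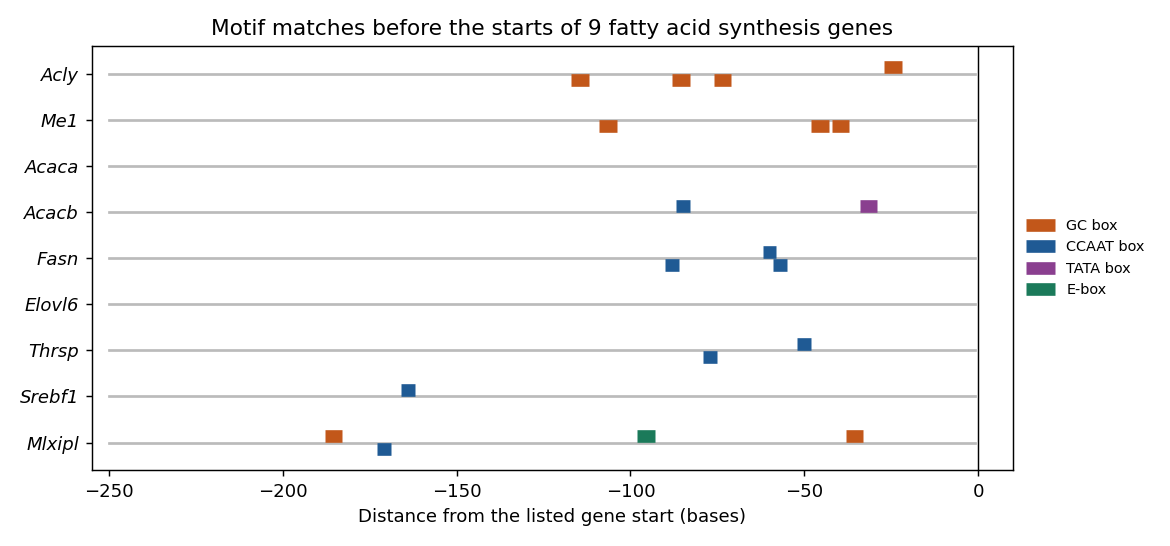
Matches to motif letters in the 250 bases before the listed start of 9 genes, with distance from the start in bases on the horizontal axis and 1 line per gene. Blocks above a line match the gene's own strand (or both strands, for the E-box), and blocks below it match the opposite strand. The CCAAT boxes of Fasn, Thrsp and Acacb lie between bases -90 and -48, and Acaca and Elovl6 hold no match.

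The genes are given in 2 groups, by whether their levels overlapped between genotypes. Fasn, Acaca and Thrsp were lower in each KO library than in every WT library, as were 4.89% of all genes tested. The ranges of the other 7 genes overlapped. Of those 7, Scd1, Acacb and Mlxipl had lower KO means (ratios of means 0.702, 0.793 and 0.673), and Acly, Me1, Elovl6 and Srebf1 differed by less than 0.1 on the log2 scale. The grouping is not one of size, since Acaca (log2 difference -0.21) differed less than Scd1 (-0.51), Mlxipl (-0.50) and Acacb (-0.32). The genes are taken here in the order of the pathway.

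**Figure D2:**
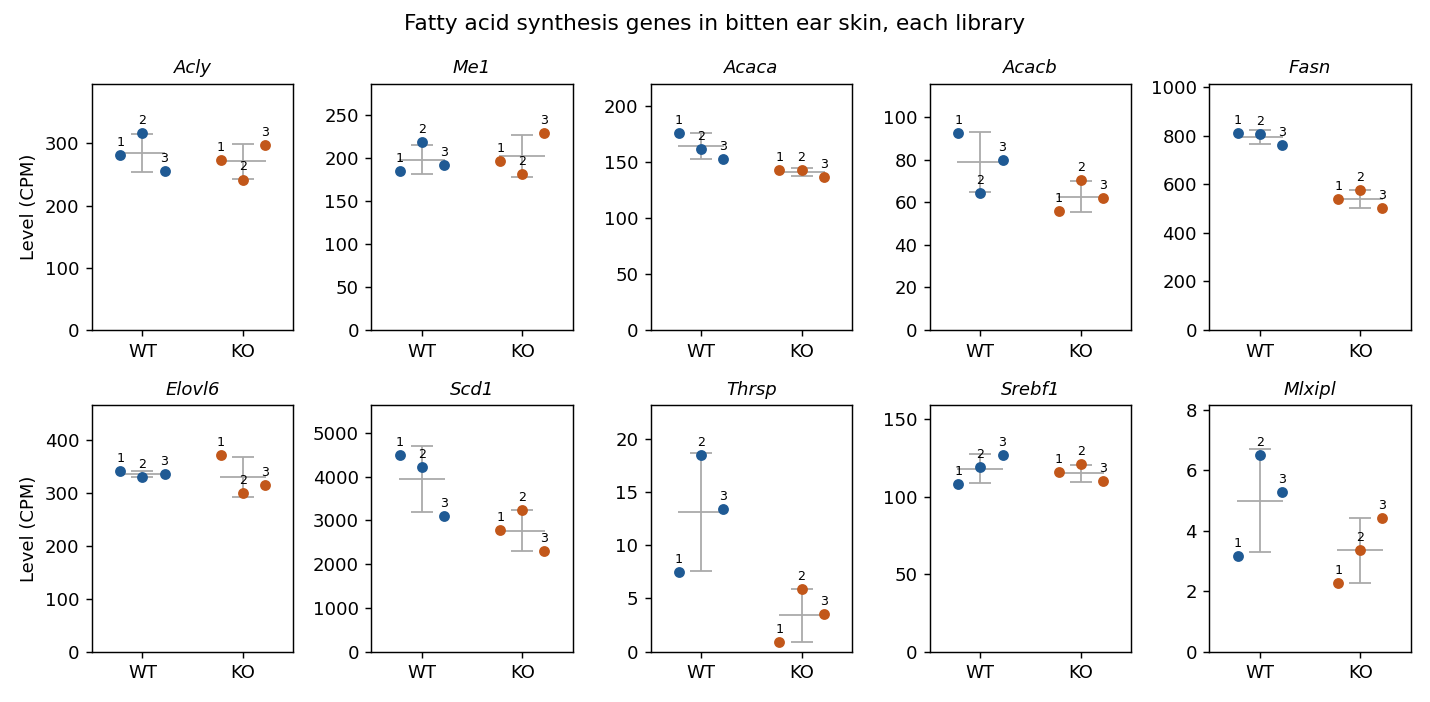
Level of each gene in CPM in the 3 WT (blue) and 3 KO (orange) libraries, with the replicate number above each point. Grey bars give the mean and the SD (n = 3), each vertical axis starts at 0 and the scales differ between genes. All KO points lie below all WT points for Acaca, Fasn and Thrsp.

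The genes that feed the pathway did not separate the genotypes. Acly (chr11:100476352-100528000, minus strand) stood at 281, 317 and 256 CPM in WT replicates 1, 2 and 3 and at 273, 242 and 298 CPM in KO replicates 1, 2 and 3. KO replicate 3 lay above WT replicates 1 and 3, and the log2 difference was -0.07 (SE 0.12). Me1 (chr9:86581363-86695914, minus strand) stood at 185, 218 and 192 CPM in WT and at 196, 181 and 229 CPM in KO. The lowest and the highest Me1 values were both from KO libraries, and the log2 difference was 0.02 (SE 0.12). Here and below, a difference is KO minus WT in log2(CPM + 0.5), where the added 0.5 shrinks the fold of genes with few reads, and SE is the standard error that limma gives.

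The carboxylases make the committed step. Acaca, the cytosolic form (chr11:84195438-84401651, plus strand), stood at 176, 162 and 153 CPM in WT and at 143, 143 and 137 CPM in KO. The groups did not overlap, but the gap was narrow, from 153 CPM in the lowest WT library to 143 CPM in the highest KO library. The KO mean of 141 ± 3.59 CPM (SD, n = 3) was 0.86 times the WT mean of 164 ± 11.7 CPM, a log2 difference of -0.21 (SE 0.10).

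Acacb, whose product malonyl-CoA at the mitochondrion restrains the entry of fatty acids for oxidation (chr5:114165518-114250758, plus strand), stood at 92.5, 64.5 and 79.6 CPM in WT and at 55.7, 70.3 and 61.7 CPM in KO. KO replicate 2 lay above WT replicate 2, while the other KO libraries lay below every WT library. The log2 difference was -0.32 (SE 0.16), and between libraries of a genotype Acacb varied more than Acaca (within-group SD of 0.218 against 0.0765 on the log2 scale).

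Fasn (chr11:120805958-120824547, minus strand), the synthase, was the member with the widest gap relative to its spread. It stood at 811, 808 and 760 CPM in WT replicates 1, 2 and 3 and at 539, 576 and 501 CPM in KO replicates 1, 2 and 3. Each KO library held between 63.2% and 72.6% of the WT mean, and the lowest WT library held 95.8% of it. The WT mean was 793 ± 28.8 CPM and the KO mean 539 ± 37.3 CPM (SD, n = 3 each), a ratio of 0.68 and a log2 difference of -0.56 (SE 0.10).

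The 95% exact Poisson interval of the highest KO library was 551 to 601 CPM and that of the lowest WT library was 738 to 782 CPM, and these intervals cover counting error only. Fasn was also steady within each genotype. Its within-group SD was 0.0801 on the log2 scale, and 4.4% of the 14306 genes tested had a lower one (median of all genes 0.253). Acaca stood at the 3.8th percentile in the same order, Srebf1 at the 7.3rd and Elovl6 at the 12.2nd, whereas Thrsp stood at the 96.2nd. The order is not matched for level, and counting error is larger for genes with few reads, such as Thrsp. Fasn was also chosen for separating the genotypes, which favours a low within-group SD.

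Of the enzymes that finish the fatty acid, SCD1 and ELOVL6 gave different pictures. Scd1 (chr19:44394450-44407709, minus strand), the stearoyl-CoA desaturase, stood at 4500, 4224 and 3089 CPM in WT and at 2768, 3232 and 2291 CPM in KO. KO replicate 2 exceeded WT replicate 3, so the groups overlapped, while the other KO libraries lay below all WT libraries. The log2 difference was -0.51 (SE 0.19). Scd1 has close relatives (Scd2, Scd3), and the method of the authors can divide a read among genes, so its level may hold some of their reads.

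Elovl6 (chr3:129532386-129638493, plus strand), the palmitate elongase, stood at 342, 330 and 337 CPM in WT and at 373, 301 and 316 CPM in KO. The WT libraries were nearly equal (coefficient of variation 1.73%) and the KO libraries lay on both sides of them (11.4%). The log2 difference was -0.03 (SE 0.11).

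Neither transcription factor separated the genotypes. Srebf1, which encodes SREBP1 (chr11:60199084-60222581, minus strand), stood at 108, 119 and 127 CPM in WT and at 116, 121 and 110 CPM in KO, with a log2 difference of -0.03 (SE 0.10). All KO values lay within the WT range. The listed end of Srebf1 overlaps the end of Rai1 on the other strand, which stood at 31.6 to 43.8 CPM over the 6 libraries. Mlxipl, which encodes ChREBP (chr5:135089890-135138201, plus strand), was low, at 3.15, 6.51 and 5.28 CPM in WT and at 2.28, 3.36 and 4.41 CPM in KO. Those values stand for 13, 32 and 32 reads and for 15, 12 and 15 reads. KO replicates 2 and 3 exceeded WT replicate 1, and the log2 difference of -0.50 had an SE of 0.36.

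Thrsp (chr7:97412933-97417550, minus strand) had the lowest ratio of the 10 genes and the widest relative spread. It stood at 7.50, 18.5 and 13.4 CPM in WT replicates 1, 2 and 3 (31, 91 and 81 reads) and at 0.91, 5.88 and 3.53 CPM in KO replicates 1, 2 and 3 (6, 21 and 12 reads). Every KO library lay below every WT library, but KO replicate 2 was near WT replicate 1, and their exact Poisson intervals (3.64 to 9 and 5.1 to 10.7 CPM) overlapped. The KO mean was 3.44 ± 2.49 CPM against 13.1 ± 5.51 CPM in WT (SD, n = 3 each), a ratio of 0.262. The log2 difference was -1.95 (SE 0.57), and it lay between -2.43 and -1.34 when any 1 library was left out.

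Counted together, 9 of the 10 genes had a lower KO mean, and Me1 was the exception. The median log2 difference was -0.27, against -0.03 over all 14306 genes whose mean reached 1 CPM. Every KO library was below every WT library for 3 of the 10 genes, and this held for 4.89% of all genes. No gene of the 10 had all KO libraries above all WT libraries, against 2.95% of all genes. Since the group was chosen on this contrast, nothing is read from these counts. Without KO replicate 2 the number of genes whose groups did not overlap was 5 in place of 3, with Scd1 and Acacb added, and over all genes the same condition held for 12.0%, since it is met more often with fewer libraries.

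Fat cells are a main place of this pathway, and their markers are given beside it. Of 21 adipocyte markers (such as Plin1, Cidec, Fabp4 and Lep), 20 had a difference below 0, with a median log2 difference of -0.72. By limma on log2(CPM + 0.5), 9 of the 21 were lower in KO at an unadjusted p below 0.05, as were 1.82% of all genes, and 0 were higher, against 1.06%. None of the 21 reached an adjusted p below 0.05, which 2 of the 14306 genes (0.014%) did. The markers were listed with earlier results of these data known, so no excess over all genes is read from these counts. The direction of calls over all genes depended on scaling, with 260 lower and 152 higher as deposited, 215 and 209 after rescaling by the median of ratios, and 193 and 232 after quantile normalization. Summed over the list they stood at 1618, 2205 and 2239 CPM in WT replicates 1, 2 and 3 and at 1157, 2036 and 1294 CPM in KO replicates 1, 2 and 3. The sum of KO replicate 2 lay within the WT range, and 17 of the 21 markers were there at or above the lowest WT library. In a bulk sample, fewer cells of a type and less RNA per cell cannot be told apart.

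Among KO libraries, replicate 2 had the highest sum of these markers. It was also the highest KO library for 6 of the 10 genes, Fasn, Acaca, Acacb, Scd1, Thrsp and Srebf1. For Acly, Elovl6 and Me1 it was the lowest KO library, and for Mlxipl the middle one. The same count was not made over all genes, so nothing is read from it.

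**Figure D3:**
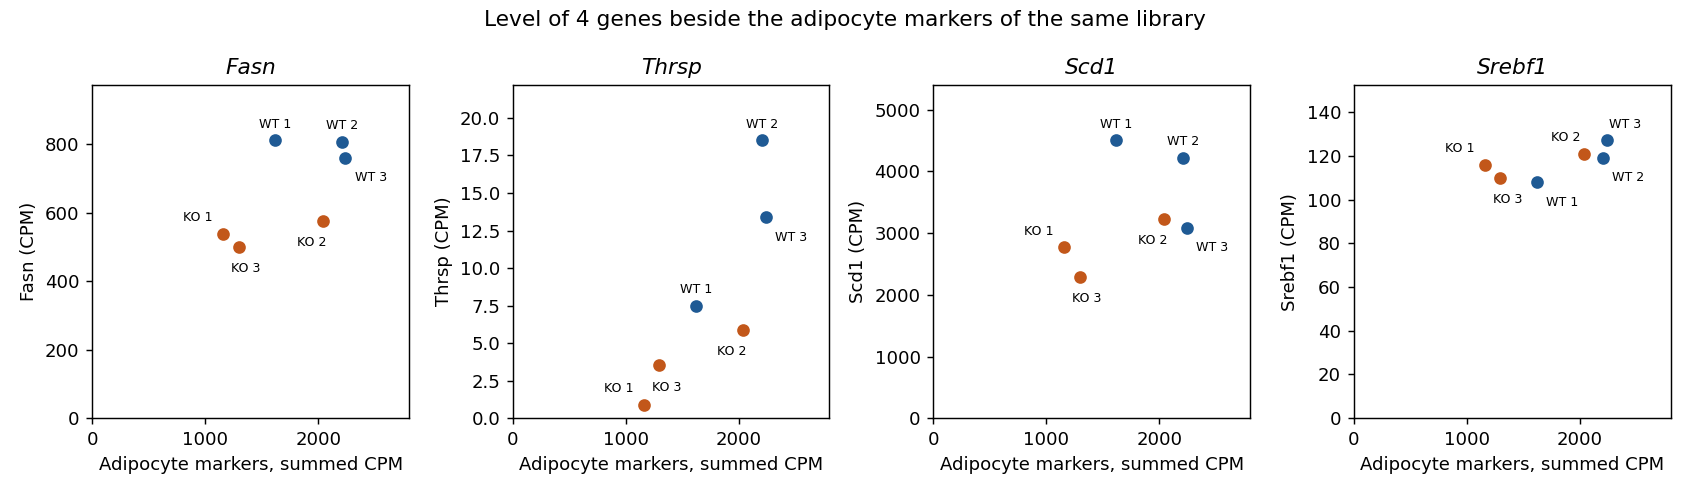
Level of Fasn, Thrsp, Scd1 and Srebf1 in CPM (vertical axes, from 0) against the sum of 21 adipocyte markers in CPM in the same library, with WT in blue and KO in orange. KO replicate 2 has a marker sum of 2036 CPM, within the WT range of 1618 to 2239 CPM, its Fasn and Thrsp levels lie below those of every WT library, and its Scd1 and Srebf1 levels lie within the WT range.

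When each gene was expressed relative to the mean log2 level of the adipocyte markers of its library, Thrsp alone kept all KO libraries below all WT libraries. Its relative level was -2.06, -1.38 and -1.92 in WT and -3.80, -2.77 and -2.63 in KO on the log2 scale, a difference of -1.28. The relative level of Fasn was 4.60, 4.03 and 3.86 in WT and 4.78, 3.72 and 4.33 in KO, with a difference of 0.12 and overlapping groups. For Scd1 the relative difference was 0.17, for Mlxipl 0.18, for Acacb 0.35, for Acaca 0.46, and for Acly, Me1, Elovl6 and Srebf1 it was 0.60 to 0.70, all with overlapping groups. These values depend on the marker mean, which was 5.06, 5.63 and 5.71 in WT and 4.29, 5.45 and 4.64 in KO on the log2 scale, with overlapping groups. The part of adipocyte content in the differences was not tested.

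Markers of other skin cells are given beside these levels. Of 12 sebaceous gland markers, which mark another lipid-making cell, 10 had a difference below 0 with a median of -0.18. By limma 0 were lower at an unadjusted p below 0.05 and 1 was higher (Acsbg1, log2 difference 0.27, adjusted p = 0.998), and their sum was 925 to 1212 CPM in WT and 855 to 1081 CPM in KO. All 17 skeletal muscle markers had a difference below 0 (median -0.51, 4 at an unadjusted p below 0.05 and 0 at an adjusted one), with sums of 6207 to 8150 CPM in WT and 3809 to 7711 CPM in KO. Of 11 tested epidermal keratinocyte markers, 10 had a difference above 0 (median 0.12) and none passed, with sums of 34764 to 45865 CPM in WT and 39825 to 53737 CPM in KO. The 14 hair follicle genes gave opposite directions on the linear and the log scale. All 14 had a lower mean CPM in KO and a log2 difference above 0 (median 2.89), with WT replicate 3 far above and WT replicates 1 and 2 near 0. At least 1 library was at 0 for 12 of the genes. None passed at an unadjusted p below 0.05.

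Neutrophil markers (7 of 10 tested, median -0.40) and macrophage markers (10 tested, median -0.12) did not pass for any gene. The neutrophil markers summed to 624, 212 and 32.8 CPM in WT replicates 1, 2 and 3 and to 213, 92.8 and 97 CPM in KO replicates 1, 2 and 3, and the macrophage markers to 583 to 1179 CPM in WT and 555 to 1113 CPM in KO. The part of these cells in the levels of the 10 genes was not tested.

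The wider pathway was described through 52 further genes in 4 lists, of which 51 were tested. At an unadjusted p below 0.05, 5 of the 51 (9.8%) were lower in KO, against 1.82% of all genes, and 0 were higher, against 1.06%. None reached an adjusted p below 0.05 (by limma, adjusted p = 0.998 for each of the 5). The median log2 difference was -0.12. Every KO library was below every WT library for 8 of the 51 genes, against 4.89% of all genes, and above them for 1, against 2.95%. These lists too were chosen with earlier results of these data known, so the shares cannot show an excess in the pathway.

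The supply of acetyl-CoA and NADPH held 3 of the 5, in 13 genes with a median of -0.13. Pcx, pyruvate carboxylase, which refills the citrate that carries acetyl units out of the mitochondrion, stood at 64.1, 72.4 and 57.7 CPM in WT and at 37.2, 45.1 and 39.7 CPM in KO (log2 difference -0.66, SE 0.14, adjusted p = 0.998). No KO library approached a WT library for Pcx. Pdha1, a subunit of pyruvate dehydrogenase, stood at 150, 158 and 145 CPM in WT and at 122, 127 and 126 CPM in KO (-0.27, SE 0.09, adjusted p = 0.998), and its unadjusted p was below 0.05 in 11 of 14 alternative analyses, but not without the trend, without WT replicate 2 or without KO replicate 1. Acss2, which makes acetyl-CoA from acetate, stood at 22, 26.2 and 21.8 CPM in WT and at 12.7, 17.7 and 20.3 CPM in KO (-0.48, SE 0.20, adjusted p = 0.998), and its unadjusted p was below 0.05 in 5 of 14 alternatives and, of the analyses that left out 1 library, in that without KO replicate 3 alone. The genes of the pentose phosphate path that also yield NADPH were close to even, with 0.02 for G6pdx and 0.02 for Pgd.

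Acyl-CoA and glycerolipid synthesis, which uses the finished fatty acids, held the other 2, in 11 tested genes with a median of -0.10. Agpat2, which makes phosphatidic acid on the way to triglyceride, stood at 24.2, 33.4 and 24.6 CPM in WT and at 14, 20.2 and 14.7 CPM in KO (-0.74, SE 0.21, adjusted p = 0.998). Pnpla3, a lipid droplet protein and known SREBP1 and ChREBP target, stood at 68.3, 108 and 99.6 CPM in WT and at 45.5, 55.8 and 22.9 CPM in KO (-1.21, SE 0.32, adjusted p = 0.998). The groups did not overlap for either gene. Dgat2, which adds the last acyl chain of triglyceride, was at 253 CPM on average in both groups (log2 difference 0.00). Mogat1 was not tested because of its low level.

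None of the 13 further genes of elongation and desaturation passed (median -0.03), and the smallest p was that of Elovl5 (-0.21, adjusted p = 0.998), an elongase of polyunsaturated chains. None of the 14 further regulators passed either (median 0.01). Rxra, the partner of the sterol sensing LXR receptors, had the smallest p among them and stood at 341, 377 and 367 CPM in WT and at 409, 422 and 407 CPM in KO (0.19, adjusted p = 0.998). Every KO library was above every WT library for Rxra.

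Other routes of lipid metabolism were set beside the 10 genes. Mitochondrial fatty acid synthesis, a separate pathway that serves lipoic acid, had 0 of 5 tested genes past the threshold (median -0.10), and its smallest p was that of the acyl carrier Ndufab1 (-0.21, adjusted p = 0.998). Of 11 genes of fatty acid oxidation (median -0.08), 0 were lower and 1 was higher at an unadjusted p below 0.05. This was Cpt1a, the gate for fatty acids into the mitochondrion, at 132, 144 and 149 CPM in WT and at 178, 175 and 176 CPM in KO (0.31, SE 0.09, adjusted p = 0.998). Of 18 genes of cholesterol synthesis, which share SREBP control with Fasn, 15 had a difference above 0 (median 0.07), none passed, and Fdft1 had the smallest p (0.29, adjusted p = 0.998).

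**Figure D4:**
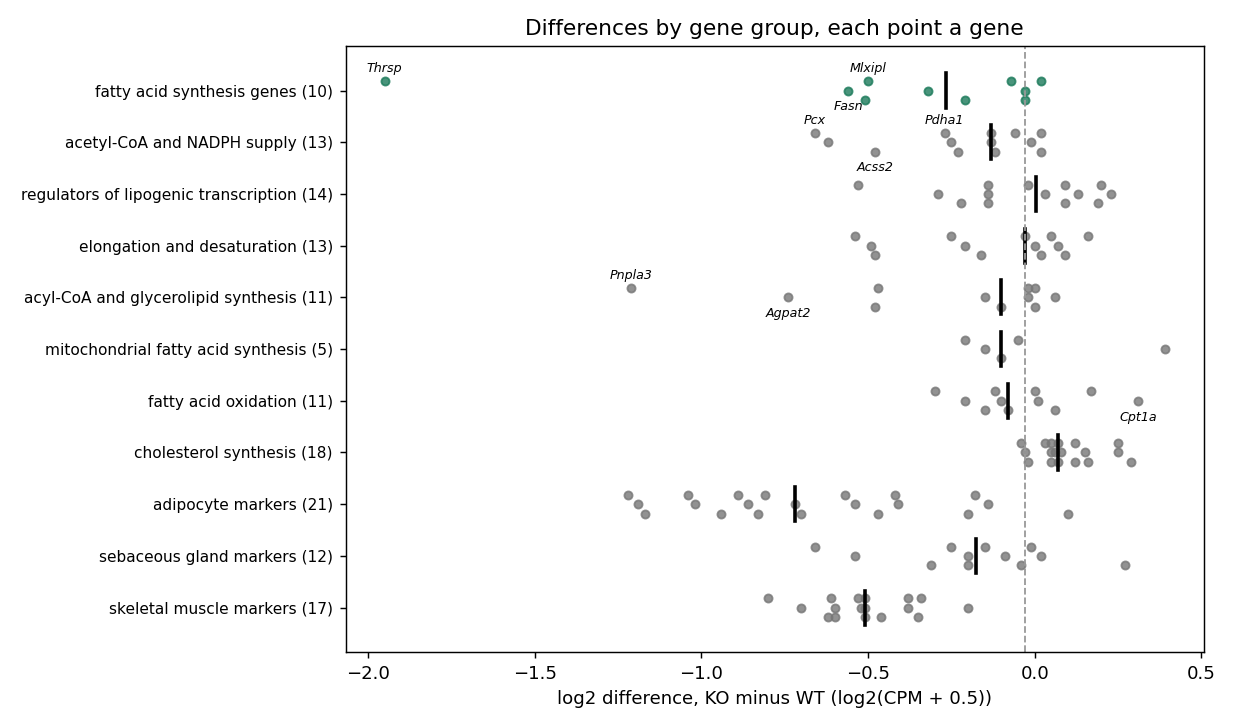
Difference between KO and WT on the log2(CPM + 0.5) scale (horizontal axis) for the 10 genes (green) and for each list set beside them (grey), 1 point per tested gene, with the number of genes in brackets. Black bars are list medians and the dashed line is the median of all genes, -0.03. The medians are -0.27 for the 10 genes, -0.72 for adipocyte markers and 0.07 for cholesterol synthesis.

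The genes whose pattern over the 6 libraries was most like that of Fasn were found among the 9849 genes whose mean reached 10 CPM. Likeness was the root mean square distance between log2(CPM + 0.5) values, each centred on the mean of its gene, and the median distance to Fasn was 0.328. The nearest 10 were Ntmt1 (0.0636), Tmem38b, Echdc1, Mosmo, Slc15a4, Fbxo30, Rpia, Cldn23, Klf6 and Pcx (0.109). Of these, Pcx alone is in the lists above. Rpia is an enzyme of the pentose phosphate path, and Echdc1 removes ethylmalonyl-CoA, a side product of acetyl-CoA carboxylase.

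Ntmt1, a protein methyltransferase and the nearest gene, stood at 13.1, 12 and 10.6 CPM in WT and at 8.19, 8.69 and 7.64 CPM in KO. Like Fasn, it had its highest KO value in replicate 2 and its lowest WT value in replicate 3. Among the other 9 genes of fatty acid synthesis, 7 were abundant enough to be ranked. Scd1 came at rank 106, Acaca at 190 and Acacb at 461, while Srebf1 (2518), Elovl6 (3005), Acly (3046) and Me1 (5341) were far from Fasn. A list of genes near Fasn is a description, since Fasn was chosen for its pattern.

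**Figure D5:**
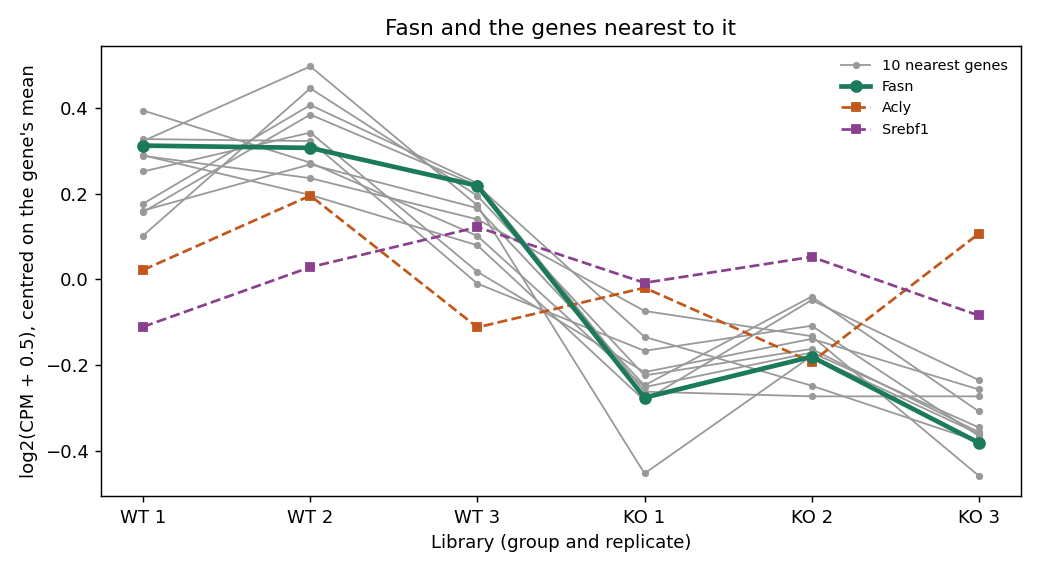
Level of Fasn (green), of the 10 genes nearest to it (grey) and of Acly and Srebf1 (dashed) in each library, as log2(CPM + 0.5) centred on the mean of each gene. Fasn and the nearest genes are high in the 3 WT libraries and low in the 3 KO libraries, while Acly and Srebf1 vary without such a step.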

How the data were processed

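RNA-seq was compared between 3 WT and 3 KO libraries, grouped by their GEO labels. Per the study's methods, each came from a separate mouse. The authors trimmed the reads, aligned them to mm10 with STAR (2.7.3a) and quantified them in Partek Flow by expectation-maximization. The deposited values are CPM: the authors divided each count by its library total and added 0.0001, which was subtracted here. Gene ends were lowered by 1 (GRCm38, counted from 1). For the use of strand in counting, the sources used here give nothing.

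Of 15667 genes, the 14306 with a mean of at least 1 CPM were compared as log2(CPM + 0.5) by limma (3.58.1, R 4.3.3; empirical Bayes with trend, two-sided, no covariate), with Benjamini-Hochberg adjustment over all of them. With 3 against 3, an exact permutation p cannot go below 0.1. The fit was first tested on simulated data. Depth was implied from the smallest step of low values. For values under 20 reads, 91.6% to 92.7% came within 0.1 of a whole number, so reads are estimates and no count model was used.

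The 10 genes and all lists were chosen with earlier results of these data known. The text names all 10 and the 10 genes nearest to Fasn. Of each pathway or comparison list it names every gene at an unadjusted p below 0.05, else the one of smallest p. Cell type markers are given as counts with a few examples. G6pdx, Pgd, Dgat2, Acsbg1 and the example markers, and the genes of the closing section, were named after their values were seen. Promoter windows of 250 bases came from RefSeq (GRCm38.p6). Alternatives were other pseudocounts, filters and scalings, no trend, a replicate block, each library left out, and levels relative to adipocyte markers.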

Additional observations from a re-analysis of the deposited data

How the results depend on the processing

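Of 149 log2 differences of the 10 genes under the alternatives, 140 stayed within 1 within-group SD of the reported value, and 9 moved further, all 9 of them in levels relative to adipocyte markers. The filters, the trend and the replicate block cannot change a difference, so their values were fixed in advance and are no check of it. In levels relative to adipocyte markers 8 of the 10 genes changed sign to above 0, including Fasn (0.12), Acaca (0.46), Scd1 (0.17), Acacb (0.35) and Mlxipl (0.18). In those levels 1 gene in place of 3 had groups that did not overlap. All 10 differences shifted there by the same amount, so these sign changes follow from the reported differences. Under the other alternatives 6 values of 4 genes near 0 (Acly, Elovl6, Me1 and Srebf1) changed sign, none past 0.07 in size. Fasn was below 0 in 14 of 15 alternatives and Thrsp in 15 of 15. Their groups do not overlap, so leaving out 1 library could not change the sign. Most of these outcomes were therefore fixed in advance, and the counts lend no support. Leaving out 1 library put Fasn between -0.61 and -0.51, and gave 3 to 5 genes of the 10 without overlap, 5 of them without KO replicate 2. The same step gave 0 to 16 genes of all at an adjusted p below 0.05 (reported 2; 0 without WT replicate 2 and 16 without WT replicate 3), 147 to 390 lower (260; 147 without WT replicate 2) and 89 to 320 higher (152; 89 without KO replicate 3 and 320 without WT replicate 3) at an unadjusted one. Among the 51 pathway genes it gave 3 to 6 lower (5; 3 without WT replicate 2) and 0 to 1 higher (0; 1 without WT replicate 1). Quantile normalization gave 193 lower and 232 higher genes, the median of ratios 215 lower and 209 higher genes and 1 higher pathway gene (Rxra), and limma without the trend 3 lower pathway genes. The cause of these shifts was not tested. Replicate numbers are shared by the genotypes in the labels. Deviations of same-numbered libraries correlated at 0.376, -0.306 and -0.222, and those of differently numbered libraries at -0.382 to 0.449. With 3 libraries a genotype, each centred on its group mean, these values cannot decide whether the numbers pair the libraries. With the replicate block 414 genes were lower. Depth limits Mlxipl and Thrsp, which rest on 6 to 91 reads a library.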

Other observations

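In WT replicate 3, the library with 23533 CPM of hair follicle genes, some listed genes outside the 10 stood above the other WT libraries and others below them. Fads2, a desaturase of polyunsaturated chains, stood at 36.4 CPM there and at 9.92 and 11.6 CPM in WT replicates 1 and 2. Scd2, a relative of Scd1, stood at 438 CPM against 245 and 267 CPM, and Scd3 at 22.9 CPM against 10.6 and 10.3 CPM. Acsl3, which activates fatty acids, stood at 36.2 CPM against 18.4 and 16.8 CPM, and the melanocortin receptor gene Mc5r at 25.9 CPM against 6.54 and 7.32 CPM. In the other direction, Elovl4 stood at 849 CPM in WT replicate 3 against 1123 and 919 CPM, and Hsd17b12 at 101 CPM against 157 and 123 CPM. Dgat1 stood at 20.1 CPM there against 44.3 and 24.4 CPM. A relation to hair follicle content was not tested. Fasn (760 CPM), Acaca (153 CPM) and Scd1 (3089 CPM) had their lowest WT values in the same library. In KO replicate 2, the KO library with the most hair follicle RNA (9362 CPM), Fads2 (18.8 CPM), Acsl3 (24.8 CPM) and Mc5r (12.9 CPM) were the highest of the KO libraries, while Scd2 (261 CPM) and Scd3 (6.55 CPM) were the lowest.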
